A study of Solanum lycopersicum x Solanum pennellii and Solanum lycopersicum with 7 samples.

Results

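The gibberellin receptors and the growth repressor they act on were followed in tomato leaf RNA. The 4 genes were picked by identifier and not by value, though with earlier results of these data known. They are PROCERA (Solyc11g011260), the DELLA gene of tomato, and 3 GID1 receptor genes, Solyc01g098390, Solyc09g074270 and Solyc06g008870. The receptors are called here by the chromosome their identifiers name, 1, 9 and 6. All 4 were found among the 34725 genes listed in the count tables.

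Leaf RNA of IL2-6 and of IL3-2, 2 introgression lines grown in the field, was sequenced in 3 libraries per line. In such a line a stretch of DNA from a wild species, here Solanum pennellii, replaces the matching stretch in a cultivated tomato. The names of IL2-6 and IL3-2 point to chromosomes 2 and 3. The labels give IL2-6 an enhanced biomass production and name M82 as the control line. The M82 library, which the submitters used to check genotypes, was not analysed here, so the comparison is IL2-6 against IL3-2 and gives no level relative to M82. None of the 4 genes lies on chromosome 2 or 3 by its identifier.

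Gibberellins are growth hormones that promote the elongation of stems and leaves. GID1 is a soluble receptor in the nucleus and cytoplasm. Once it has bound gibberellin it binds a DELLA protein, which an F-box ubiquitin ligase then marks for destruction. DELLA proteins hold growth back, and tomato plants that lack PROCERA function grow tall with simpler leaves. Because DELLA is controlled to a large part by the breakdown of the protein, a transcript level is not a measure of the repressor itself. In Arabidopsis, transcripts of GID1 receptors and of the late synthesis enzymes fall when gibberellin is supplied, a feedback loop that is well known.

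The libraries held 18479252 to 21320790 gene counts in IL2-6 and 28828109 to 40146308 in IL3-2. Across tested genes, the Pearson correlation of log2 CPM was 0.992 to 0.996 for libraries of the same line and 0.893 to 0.902 for libraries of different lines (genes are not independent of each other). Whether libraries of the same line stem from different plants is not stated, so p-values cover only the variation among these libraries, part of which may be technical. Sequencing lane codes stand in the IL3-2 labels but not in the IL2-6 labels. The protocol names an unstranded kit for single-end libraries and a stranded kit for paired-end ones and does not say which libraries had which, so line and library preparation, the kit included, cannot be told apart in any count, share or ratio given here. Levels are CPM, counts per 1000000 of the library total after TMM scaling, which corrects for unequal library make-up. Lengths of the genes were not used here, so levels are compared between lines and not between genes. In bulk leaf RNA, fewer cells that use a gene and less RNA per cell cannot be told apart.

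The leaf identity of the samples was read from 4 leaf markers, identifiers assigned from general knowledge to Rubisco small subunits, Rubisco activase and a chlorophyll-binding protein. All 4 were higher in IL2-6 in the edgeR test described next, as were 30.4% of all tested genes. The summed level of the 4 was 61471 to 64062 CPM in IL2-6 and 29200 to 33146 CPM in IL3-2. Most of that gap came from 1 Rubisco small subunit gene on chromosome 2, the chromosome for which IL2-6 is named, with 27254 to 28223 CPM in IL2-6 and 6191 to 7678 CPM in IL3-2 (log2 fold change 2.03). The other 3 leaf markers had log2 fold changes of 0.16 to 0.59. Of 3 meristem markers, 1 was counted in every library. It was lower in IL2-6 in the edgeR test, as were 33.0% of all tested genes, and it too lies on chromosome 2. The summed level of the 3 was 1.21 to 2.74 CPM in IL2-6 and 3.95 to 4.20 CPM in IL3-2. The 2 fruit markers summed to 6.30 to 7.47 CPM in IL2-6 and 6.31 to 7.23 CPM in IL3-2, with 1 of them at 0 everywhere. The 3 flower markers summed to 1.58 to 2.55 CPM in IL2-6 and 1.63 to 2.00 CPM in IL3-2, and the pollen marker was at 0 in IL2-6 and at most 0.0474 CPM in IL3-2. The part of these markers in the results for the receptors and PROCERA was not tested.

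The comparison asked whether gibberellin perception differs between the lines at the level of transcripts. All 4 genes passed the filter on low counts and all 4 differed in edgeR's quasi-likelihood test, with p adjusted by Benjamini-Hochberg over 20823 genes and a limit of 0.05. The receptor on chromosome 1 was higher in IL2-6, and the receptors on chromosomes 6 and 9 and PROCERA were lower. The call on the chromosome 9 receptor was lost in 6 of 15 other settings. Calls were common in this comparison: 63.3% of tested genes passed the same limit, 30.4% higher in IL2-6 and 33.0% lower, so 4 calls among 4 genes say little about gibberellin genes as a group. The receptors moved in opposite directions. On the log2 scale, another scaling of the libraries would move all 4 genes by about the same amount, and values under other scalings are given below.

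**Figure D1:**
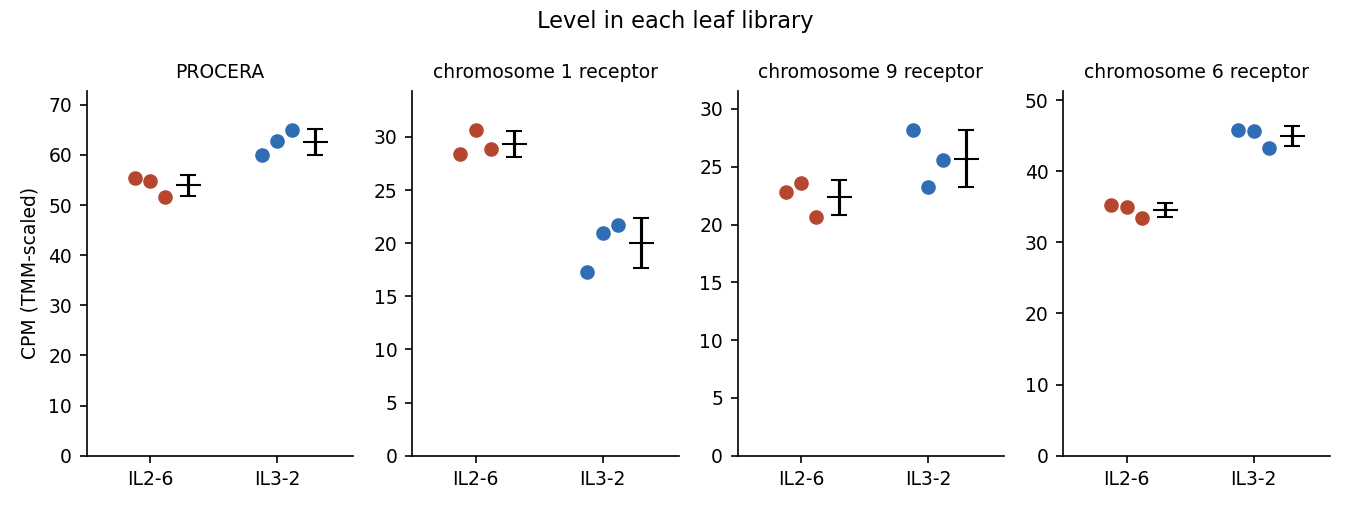
Level of each gene in each leaf library, in CPM after TMM scaling; the points are libraries and the bars beside them are the mean ± SD of 3. The chromosome 1 receptor is the only panel in which the IL2-6 points lie above those of IL3-2, and in the chromosome 9 panel the lines overlap.

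The receptor gene on chromosome 1, Solyc01g098390, had 28.4, 30.7 and 28.8 CPM in IL2-6 replicates 1, 2 and 3, against 17.3, 21.0 and 21.7 CPM in IL3-2. Every IL2-6 library lay above every IL3-2 library, with a gap of 6.68 CPM between the nearest ones. The means were 29.3 ± 1.22 CPM in IL2-6 and 20.0 ± 2.35 CPM in IL3-2 (each ± SD, n = 3 per line). The log2 fold change of IL2-6 over IL3-2 was 0.54 (standard error 0.08), a 1.46-fold difference with an edgeR adjusted p of 4.08e-05. Of all tested genes, 32.7% had a larger absolute log2 fold change. These values rest on 526 to 579 counts per library in IL2-6 and 527 to 916 in IL3-2.

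The spread within IL3-2 came mostly from its replicate 1. There the exact 95% Poisson interval, which covers counting error only, ran from 15.9 to 18.9 CPM, below the lower bounds of 19.5 CPM in replicate 2 and 20.3 CPM in replicate 3. Without that library the log2 fold change was 0.46 (edgeR adjusted p = 9.65e-06), and over the 6 fits that omit 1 library it lay between 0.46 and 0.61. The coefficient of variation was 4.17% in IL2-6 and 11.8% in IL3-2, where counting alone would give 4.23% and 3.72%.

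The receptor gene on chromosome 6, Solyc06g008870, had 35.2, 34.9 and 33.4 CPM in the IL2-6 replicates, against 45.8, 45.7 and 43.3 CPM in those of IL3-2. All IL2-6 libraries lay below all IL3-2 libraries, and the nearest ones were 8.10 CPM apart. The means were 34.5 ± 0.952 CPM in IL2-6 and 44.9 ± 1.44 CPM in IL3-2 (each ± SD, n = 3 per line). On the log2 scale IL2-6 minus IL3-2 was −0.38, with a standard error of 0.06 and an edgeR adjusted p of 3.96e-05, so IL2-6 had 0.768 of the IL3-2 level. Of the 4 genes this one had the tightest replicates, with a coefficient of variation of 2.76% in IL2-6 and 3.20% in IL3-2, against counting errors of 3.89% and 2.50%. A larger absolute change was seen in 44.9% of tested genes.

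The receptor gene on chromosome 9, Solyc09g074270, had 22.8, 23.6 and 20.6 CPM in the IL2-6 replicates, against 28.2, 23.3 and 25.6 CPM in those of IL3-2. The lines overlapped, since IL2-6 replicate 2 lay above IL3-2 replicate 2. The means were 22.3 ± 1.53 CPM in IL2-6 and 25.7 ± 2.46 CPM in IL3-2 (each ± SD, n = 3 per line). This is a log2 fold change of −0.20 (standard error 0.08), with an edgeR adjusted p of 0.0383.

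That difference was close to the limit of the test. With DESeq2 its adjusted p was 0.0708, and with every library thinned to the smallest total the edgeR adjusted p was 0.0513. Leaving out IL2-6 replicate 1 or 3, or IL3-2 replicate 1 or 3, also took it past the limit, with edgeR adjusted p of 0.0725, 0.184, 0.139 and 0.0846 in that order. Among these, the largest shift came without IL3-2 replicate 1, the library with the highest value, where the log2 fold change was −0.13. In that library the chromosome 1 receptor had its lowest level and the chromosome 9 receptor its highest.

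Added up, the receptors had 86.4, 89.2 and 82.9 CPM in the IL2-6 replicates, against 91.4, 90.0 and 90.6 CPM in those of IL3-2. The sums averaged 86.2 ± 3.16 CPM in IL2-6 and 90.6 ± 0.694 CPM in IL3-2 (each ± SD, n = 3 per line). The lines did not overlap, but IL2-6 replicate 2 and IL3-2 replicate 2 were less than 1 SD of IL2-6 apart. The two-sided exact permutation p was 0.1, the smallest that 3 libraries against 3 can give. The log2 ratio of these means was −0.07, against log2 fold changes of 0.54 for the chromosome 1 gene and −0.38 for the chromosome 6 gene. The size of the gap in the sum depended on scaling and on the libraries. On raw library totals the sums averaged 81.4 ± 2.28 CPM in IL2-6 and 95.9 ± 0.637 CPM in IL3-2 (each ± SD, n = 3 per line), a log2 ratio of −0.24. Without IL2-6 replicate 3 the mean difference with TMM was −2.67 CPM, against −4.48 CPM with all libraries.

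The make-up of the receptor transcripts was read from shares. The chromosome 1 gene gave 32.8%, 34.4% and 34.8% of the receptor counts in the IL2-6 replicates, against 18.9%, 23.3% and 24.0% in those of IL3-2. Its mean share was 34.0 ± 1.03% in IL2-6 and 22.1 ± 2.73% in IL3-2 (each ± SD, n = 3 per line), higher in all IL2-6 libraries by 11.9 percentage points on average. The chromosome 6 gene gave 40.7%, 39.2% and 40.3% in IL2-6, against 50.2%, 50.8% and 47.8% in IL3-2, a mean difference of −9.51 points with no overlap. The chromosome 9 gene gave 26.4%, 26.4% and 24.9% in IL2-6, against 30.9%, 25.9% and 28.2% in IL3-2, and these overlapped.

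A share of counts does not depend on the depth or scaling of a library, though it does depend on gene length. For the shares of the chromosome 1 and chromosome 6 genes the two-sided exact permutation p was 0.1, the smallest this design allows, with an adjusted p of 0.15 over 3 receptors. For the chromosome 9 share the exact p was 0.3, and its adjusted p was also 0.3.

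**Figure D2:**
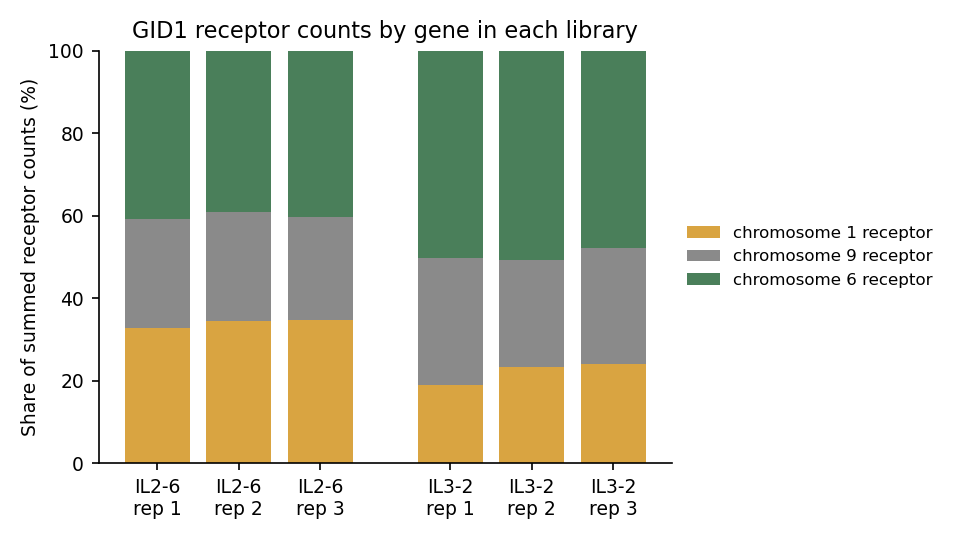
Share of the summed counts of the 3 GID1 receptor genes, in percent, taken by each gene in each library (stacked bars, not corrected for gene length). The lowest segment, the chromosome 1 gene, covers 32.8% to 34.8% in IL2-6 and 18.9% to 24.0% in IL3-2.

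PROCERA, the repressor that the receptors bind, had 55.4, 54.9 and 51.5 CPM in the IL2-6 replicates, against 59.9, 62.8 and 65.0 CPM in those of IL3-2. The lines did not overlap, with 4.54 CPM between the nearest libraries. The means were 53.9 ± 2.10 CPM in IL2-6 and 62.6 ± 2.58 CPM in IL3-2 (each ± SD, n = 3 per line). PROCERA in IL2-6 was thus at 0.861 of its IL3-2 level, a log2 fold change of −0.22 (standard error 0.06), with an edgeR adjusted p of 0.00358. It is a small difference for this comparison, since 64.4% of tested genes had a larger absolute log2 fold change. PROCERA had the most counts of the 4 genes, 941 to 1130 per library in IL2-6 and 1824 to 2747 in IL3-2. Leaving out each library in turn gave log2 fold changes of −0.24 to −0.18, with edgeR adjusted p up to 0.0280.

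Lines that do not overlap are common here too: 67.7% of tested genes had no overlap in CPM, 32.8% with IL2-6 above and 34.9% with IL2-6 below. Of the 4 genes, 3 had none, 1 with IL2-6 above and 2 with IL2-6 below.

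Counts of PROCERA per count of a receptor in the same library are free of scaling. Per count of the chromosome 1 receptor there were 1.95, 1.79 and 1.79 PROCERA counts in the IL2-6 replicates, against 3.46, 2.99 and 3.00 in those of IL3-2. The lines were far apart, and the log2 ratio was lower in IL2-6 by a mean difference of −0.77. Per count of the chromosome 6 receptor there were 1.57, 1.57 and 1.54 in IL2-6, against 1.31, 1.37 and 1.50 in IL3-2, a log2 difference of 0.17. PROCERA and this receptor were both lower in IL2-6, and the receptor by more. Per count of the chromosome 9 receptor there were 2.42, 2.33 and 2.50 in IL2-6, against 2.12, 2.70 and 2.54 in IL3-2, with the IL2-6 values inside the IL3-2 range. Its log2 difference of −0.02 was smaller than the SD of either line, 0.05 in IL2-6 and 0.18 in IL3-2.

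Per summed receptor count there were 0.641, 0.615 and 0.622 PROCERA counts in IL2-6, against 0.656, 0.698 and 0.718 in IL3-2. The mean was 0.626 ± 0.0133 in IL2-6 and 0.691 ± 0.0320 in IL3-2 (each ± SD, n = 3 per line; two-sided exact permutation p = 0.1 on the log2 ratio, the smallest possible). These are ratios of counts, not of molecules, and are set against each other between lines only.

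**Figure D3:**
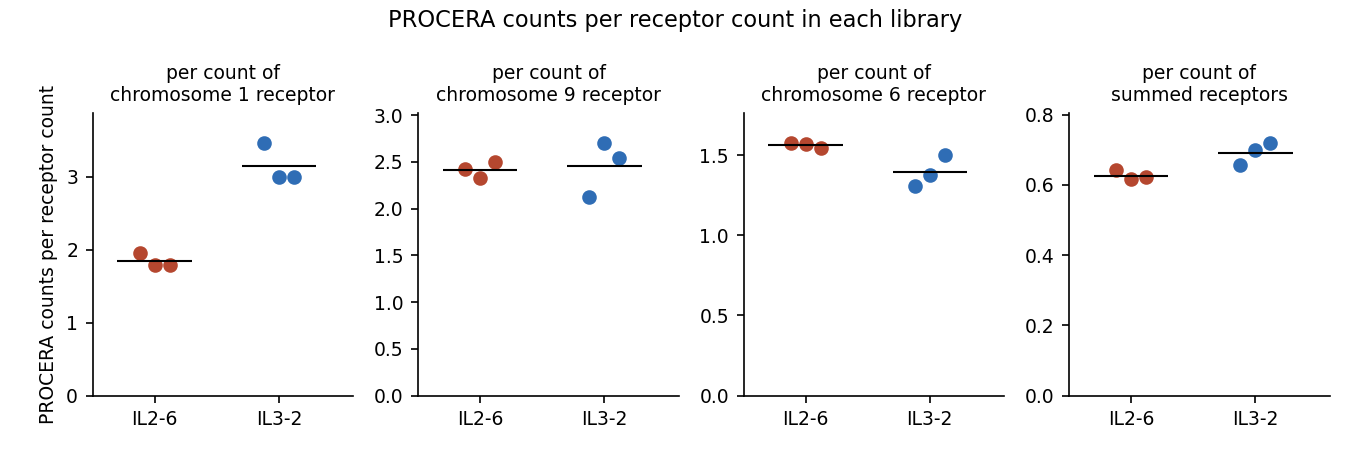
PROCERA counts per count of each receptor gene and per summed receptor count in each library (points; the line is the mean of 3). The panel for the chromosome 1 receptor shows the widest gap, with 1.79 to 1.95 in IL2-6 and 2.99 to 3.46 in IL3-2.

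Between receptors, the ratio of the chromosome 1 gene to the chromosome 6 gene differed most, by 0.94 on the log2 scale, 1.92-fold higher in IL2-6. The ratio of the chromosome 1 gene to the chromosome 9 gene was 0.76 higher in IL2-6 on the log2 scale, and that of the chromosome 9 gene to the chromosome 6 gene 0.18 higher. Without IL3-2 replicate 2 the last of these was 0.10. All 6 pairs were compared. In 5 of them the lines did not overlap, with an exact permutation p of 0.1 and an adjusted p of 0.12 over the 6 pairs, and for PROCERA over the chromosome 9 receptor the exact p was 0.9. For the chromosome 9 gene over the chromosome 6 gene the lines barely parted, at −0.697 in IL2-6 replicate 3 and −0.701 in IL3-2 replicate 1 on the log2 scale. The pairs share their genes and are not independent. No share over other gene pairs was computed, and 67.7% of single tested genes had no overlap in CPM. No pair could pass a limit of 0.05 with 3 libraries per line.

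The profiles over the 6 libraries were also compared by the root mean square difference of mean-centred log2 CPM, where 0 means the same profile. This distance takes in the difference between the lines, so it is not separate from the fold changes given above. PROCERA was 0.10 from the chromosome 6 receptor and 0.11 from the chromosome 9 receptor, and 10.6% and 12.4% of tested genes were closer to it. It was 0.39 from the chromosome 1 receptor, with 73.2% of tested genes closer. The tested gene nearest to PROCERA outside the 4 was Solyc07g055860.2, at 0.01, with 50.3 ± 1.94 CPM in IL2-6 and 58.6 ± 1.86 CPM in IL3-2 (each ± SD, n = 3 per line). The nearest to the chromosome 1 receptor was Solyc04g074750.2, at 0.03, with 24.5 ± 0.460 CPM in IL2-6 and 16.5 ± 1.68 CPM in IL3-2 (each ± SD, n = 3 per line). The files do not pair these identifiers with names. With 6 libraries and 20823 genes, close profiles are to be found for nearly any gene.

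Position was described through the 5 tested genes on either side in identifier order, a choice made after the members' values were known. Around PROCERA, 3 of 10 neighbours were higher in IL2-6 and 5 lower by the edgeR test. Around the chromosome 1 receptor, 2 were higher and 4 lower. The log2 fold changes of these neighbours ran from −3.82 to 0.41, against 0.54 for the receptor. Around the chromosome 9 receptor 2 were higher and 5 lower, and around the chromosome 6 receptor 3 were higher and 1 lower. Together 25 of the 40 neighbours were called, 62.5%, close to the 63.3% of all tested genes. The median log2 fold change of the neighbours was −0.31 around PROCERA and −0.29 around the chromosome 9 receptor, the direction of the genes themselves. It was −0.03 around the chromosome 6 receptor and −0.07 around the chromosome 1 receptor, which was itself higher in IL2-6. The part of position in the results was not tested.

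The wider pathway was read from 19 further identifiers assigned to gibberellin synthesis, inactivation and signalling from general knowledge and not checked against an annotation. Of these 14 passed the filter and 9 differed by the edgeR test, 6 higher and 3 lower in IL2-6. That is 64.3% of those tested, close to the 63.3% of all tested genes. The median log2 fold change was 0.15 in the list and −0.01 over all tested genes. The balance of directions depended on scaling: on raw library totals 4 were higher and 4 lower in IL2-6, with 2 of the synthesis genes called higher, and the median of the list was −0.01.

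Of 10 identifiers for synthesis enzymes, 7 were tested, 4 were higher in IL2-6 and 1 was lower. That is 71.4% called, beside 63.3% of all tested genes. The largest rise of the list was Solyc03g119910, with 2.30, 2.10 and 1.81 CPM in the IL2-6 replicates, against 0.493, 0.407 and 0.616 CPM in those of IL3-2. The lines did not overlap at this low level and differed by 2.01 on the log2 scale (standard error 0.23, edgeR adjusted p = 3.55e-06). The largest fall was Solyc06g066820, with 0.833, 0.700 and 1.01 CPM in the IL2-6 replicates, against 4.24, 3.20 and 4.31 CPM in those of IL3-2. It differed by −2.19 on the log2 scale (standard error 0.21, edgeR adjusted p = 4.19e-07). Another synthesis gene was far more abundant, with 99.3 ± 2.74 CPM in IL2-6 and 28.1 ± 1.10 CPM in IL3-2 (each ± SD, n = 3 per line), or 1.82 on the log2 scale. These examples were picked for their values. The 2 that were higher in IL2-6 lie on chromosome 3, the chromosome for which IL3-2 is named, and the fall lies on chromosome 6.

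Of 5 identifiers for the enzymes that inactivate gibberellin, 3 were tested and none passed the edgeR limit, with log2 fold changes of −0.39, 0.09 and 0.21 and standard errors of 0.22 to 0.32. None had an unadjusted p under 0.05 in edgeR, DESeq2 or limma-voom, while on raw library totals 1 was called lower in IL2-6 by edgeR. Their adjusted p with TMM ran from 0.132 to 0.825, and their mean levels were all under 2 CPM, with standard errors of the size of the smaller receptor differences. All 4 identifiers for signalling or target genes passed, beside 63.3% of all tested genes, 2 higher in IL2-6, with log2 fold changes of 0.79 and 0.69, and 2 lower, with −0.27 and −1.07. The gene at −1.07 lies on chromosome 2, the chromosome for which IL2-6 is named. All 3 tested identifiers of the list on chromosomes 2 and 3 were called, beside 63.3% of all tested genes. Whether they lie in the wild segments was not tested. The 2 synthesis genes on chromosome 3 had larger differences than any of the receptors.

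**Figure D4:**
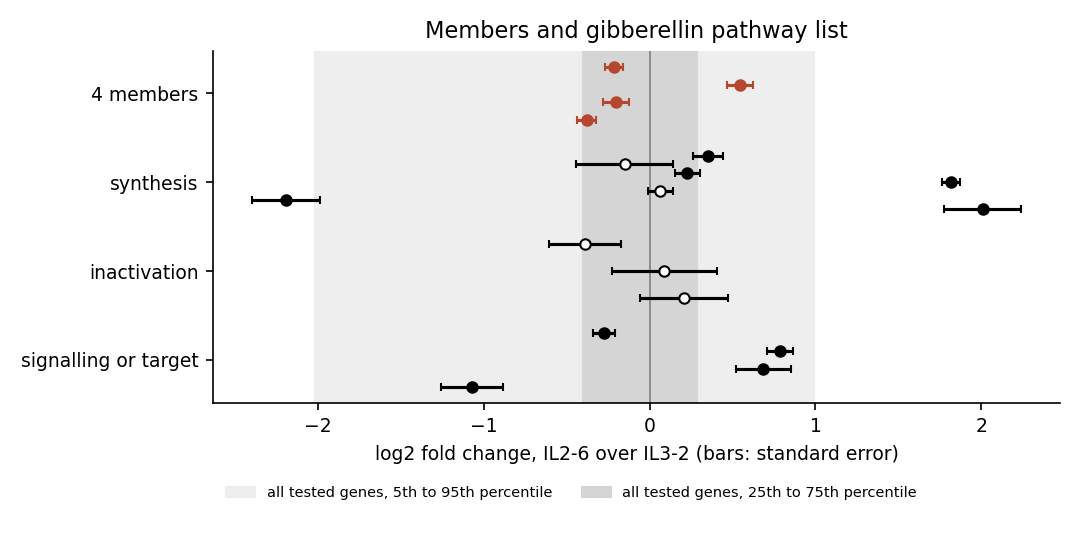
Log2 fold change of IL2-6 over IL3-2 with its standard error for the receptors and PROCERA (coloured) and for the tested genes of the pathway list by class; filled points have an edgeR adjusted p under 0.05, and the shaded bands show all tested genes. The receptors and PROCERA lie between −0.38 and 0.54, inside the wider band, while synthesis genes reach from −2.19 to 2.01.

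Scaling moved all genes together. Without scaling factors, on raw library totals, the median log2 fold change of all tested genes was −0.17, a shift of −0.16, and 29.4% of calls were higher in IL2-6, against 48.0% with TMM. On that scale PROCERA was at −0.38, the chromosome 9 receptor at −0.36, the chromosome 6 receptor at −0.54 and the chromosome 1 receptor at 0.38. PROCERA and the chromosome 9 receptor moved by more than 1.5 times, and about as far as the median did. All 4 genes kept their direction and their edgeR call there.

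**Figure D5:**
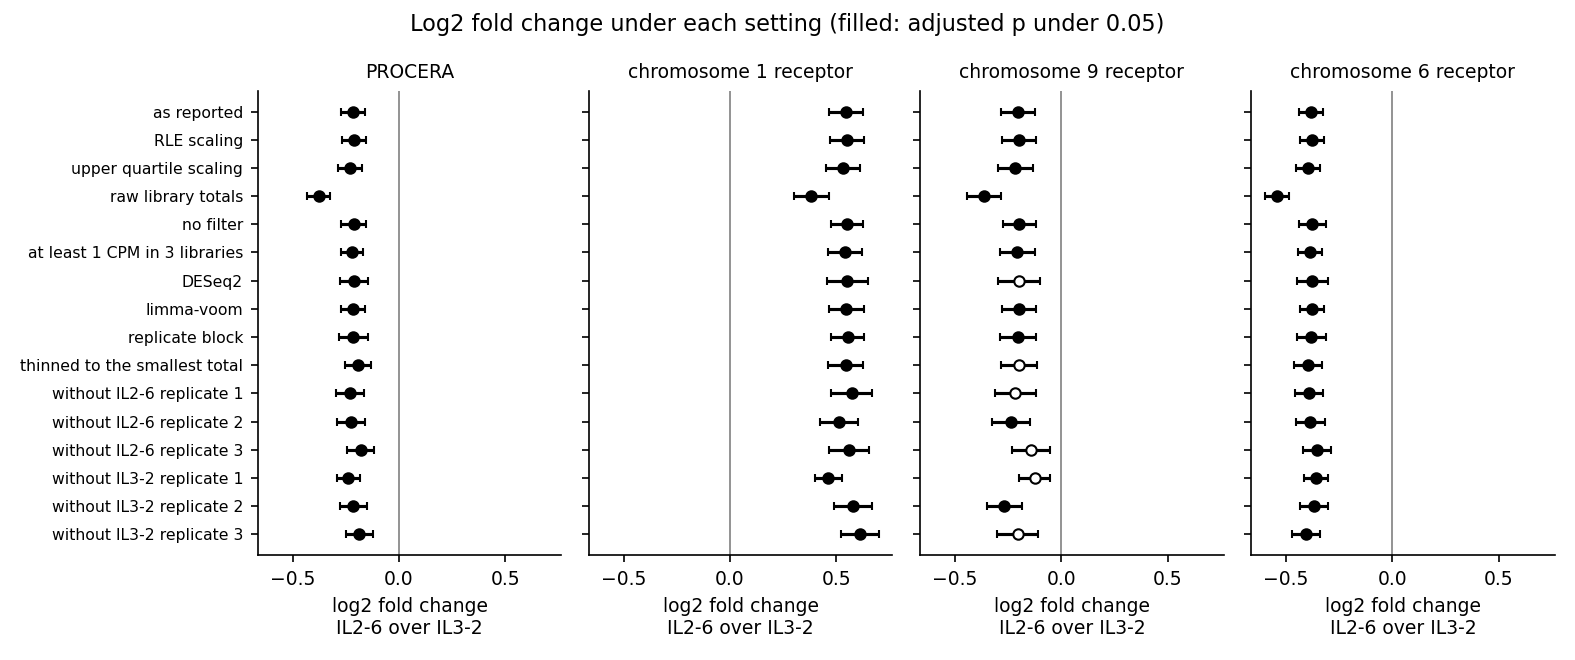
Log2 fold change of IL2-6 over IL3-2 with its standard error for each gene under the reported setting and 15 others; filled points have an adjusted p under 0.05. The 4 directions are the same in every setting, and the open points, all for the chromosome 9 receptor, mark 6 settings in which its call was lost.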

How the data were processed

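The authors deposited unnormalized counts per gene, a separate table for each library, and each of the 34725 rows names a gene. TopHat2, HTSeq, edgeR, Trimmomatic, CASAVA 1.8.2 and SAMtools 1.9 appear in the submitters' processing notes with no role. For build, annotation and the strand setting of the counting nothing is stated in the sources used here, so reads shared with overlapping or closely related genes, such as the receptors among themselves, cannot be checked. Samples were grouped by title.

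Genes were kept with edgeR's filterByExpr, which left 20823, scaled with TMM and tested by glmQLFTest (edgeR 4.0.16 under R 4.3.3), the model holding the line alone. p-values were Benjamini-Hochberg adjusted over all tested genes and called under 0.05. Standard errors with edgeR are the absolute log2 fold change over the square root of the F statistic, not an output of the fit. Those of limma-voom were worked out from its t statistic in the same way, and DESeq2 gives its own. Ratios and shares used two-sided exact permutation tests over 20 arrangements. Counts of any 2 libraries of a line differed by more than sampling noise (chi-square per degree of freedom 2.28 to 10.6), so none was treated as 1 library deposited more than once; this does not show that they come from different plants. Alternatives were DESeq2 1.42.0, limma-voom (limma 3.58.1), other scalings and filters, thinning, a replicate block and leaving out each library; those for the summed receptor level were chosen after seeing the data. The edgeR, DESeq2 and limma steps were tested on simulated data in which few genes changed, in both directions. That setting does not cover the scaling of a comparison in which most genes differ.

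The tables hold identifiers only, and the gene names come from general knowledge of the tomato literature. The genes and lists were chosen with earlier results of these data known. Named genes were the 4 members, the pathway list and each member's nearest profile, with at most 2 unnamed identifiers per direction printed. The M82 variants were not used here, and no sequences are shown, since no annotation or sequence table was used.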

Additional observations from a re-analysis of the deposited data

How the results depend on the processing

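In other settings 165 values were computed, and in 158 the direction and call held, the count stayed within 1.5 times or, for ratios, shares and the receptor sum, the value moved by less than 1 SD, pooled over both lines. For ratios and shares that limit could not be passed by leaving out 1 library, since dropping 1 of 3 values always moves a mean by less than the pooled SD. Those values had to hold and are no evidence of stability. The same goes for the receptor sum without 1 library, apart from the scaling factors, which were refitted each time. A change of sign was not counted against ratios and shares, since that needed an exact p under 0.05. Several ratios and shares moved by more than the smaller SD of IL2-6 alone. Of the exceptions, 6 concern the chromosome 9 receptor: its log2 fold change was −0.20 with DESeq2 and −0.20 when thinned, with an adjusted p of 0.0708 and 0.0513, and −0.21 to −0.13 in 4 fits without 1 library, with edgeR adjusted p up to 0.184. Over all 6 such fits it was −0.27 to −0.13. The other is the difference in summed receptor CPM, −14.4 on raw library totals and −4.48 with TMM; without 1 library it was −5.85 to −2.67. The causes were not tested. PROCERA ran from −0.38 to −0.18, the chromosome 1 receptor from 0.38 to 0.61 and the chromosome 6 receptor from −0.54 to −0.35 over 15 settings each, with adjusted p up to 0.0280, 8.95e-04 and 5.75e-04. The log2 ratio of PROCERA to the chromosome 9 receptor changed sign between settings, from −0.12 to 0.06. Counts of called genes ran from 11970 to 14266 and of called pathway genes from 8 to 10.

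Same-numbered libraries of the lines showed no shared deviation (r = −0.12, −0.04 and −0.01 across genes) and none correlated best with its own number. With 3 libraries per line this cannot settle whether the numbers stand for a pairing. A fit with a replicate block called 12496 genes against 13191 without it, gave the pathway list 9 calls, and the log2 fold changes were −0.22 for PROCERA and 0.55, −0.20 and −0.38 for the receptors on chromosomes 1, 9 and 6, all still called by edgeR, the chromosome 9 receptor at an adjusted p of 0.0498. Depth was lowest in IL2-6, where a receptor had 404 to 718 counts per library and counting error alone was 3.73% to 4.98%.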
